A study of Mus musculus with 12 samples.

Results

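Nuclear-encoded subunits of the mitochondrial respiratory chain and ATP synthase were followed in RNA-seq libraries of mouse colon. The members were chosen by gene symbol alone: Nduf followed by a, b, c, s or v and a digit, Sdha to Sdhd, and symbols that open with Uqcr, with Cox and a digit of 4 to 8, or with Atp5, leaving out the 6 symbols that carry the pseudogene suffix -ps. Of the 40050 genes in the count table, 82 matched. By symbol they fell into 37 genes of complex I, 4 of complex II, 8 of complex III, 16 of complex IV and 17 of ATP synthase (complex V). The rule takes some genes that are not core subunits: Cox7a2l is an assembly factor of supercomplexes, and Atp5s and Atp5sl act in regulation or assembly. Atp5sl, named Dmac2 in the GENCODE annotation, is counted here under ATP synthase by its symbol alone. Ndufa4, counted here under complex I by its symbol, encodes a protein now assigned to complex IV. It does not take Ndufab1 or Cyc1.

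The study sequenced total RNA of whole colon from mice with a myeloid knockout of Glul (Glul∆Lyz2), the gene of glutamine synthetase, and from Glul f/f littermates, which carry the floxed alleles without the deletion. Both genotypes were given either plain water (H2O) or dextran sulfate sodium (DSS), a chemical that injures the colon epithelium and causes colitis. The resulting groups of 3 libraries each are called f/f water, knockout water, f/f DSS and knockout DSS, and the f/f DSS libraries are numbered 1, 2 and 4. The Lyz2 promoter that the name of the knockout points to is active in myeloid cells (macrophages, monocytes and neutrophils), whereas the RNA is that of the whole tissue. The sources used here state no strain, age, dose or duration. Nothing in the labels ties a library to a single animal, so each p-value measures the spread between libraries, which may be technical in part.

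Complexes I and II pass electrons from NADH and succinate to ubiquinone, complex III hands them on to cytochrome c, and complex IV uses them to reduce oxygen. Complexes I, III and IV pump protons out of the matrix, and ATP synthase lets them flow back through a rotating ring of c subunits to make ATP. The core of complexes I, III and IV and the membrane part of ATP synthase are encoded partly in mitochondrial DNA. Nuclear genes, among them those described here, encode the other subunits. Absorptive colonocytes rely on this pathway, since they oxidize butyrate made by gut bacteria.

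The libraries held 14.7 to 41.2 M reads assigned to genes, and the members took 0.499% to 0.895% of them. Each library had between 25778 and 33817 genes with a read. Markers of the colon epithelium were present throughout, with summed normalized counts of the 12 listed genes between 132226 and 333457 per library. Glul, the targeted gene, had normalized counts of 2261 to 7852 in f/f water, 1655 to 5618 in knockout water, 7372 to 18267 in f/f DSS and 3273 to 6723 in knockout DSS. Neither genotype difference of Glul passed (log2 change -0.81 ± 0.56 SE on water and -1.17 ± 0.56 SE on DSS, limma adjusted p = 1 and 0.952). The first principal component, 35.1% of the variance, separated DSS from water libraries. Knockout water 2, the deepest library, and f/f DSS 4 lay nearest to the other treatment, and knockout DSS 3, the shallowest, stood apart on the second component.

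The coding sequences shown here are those of 2 members that fell and 2 that rose with DSS. They were picked for high and for low GC content because the direction of change followed base composition (values below). Each is read from the GENCODE M21 transcript (GRCm38) from its start codon, with G or C at the last base of a codon in capitals. Cox8a, the whole coding sequence of 210 bases, and Cox6a1, its first 240 bases, belong to members that fell:
Cox8a: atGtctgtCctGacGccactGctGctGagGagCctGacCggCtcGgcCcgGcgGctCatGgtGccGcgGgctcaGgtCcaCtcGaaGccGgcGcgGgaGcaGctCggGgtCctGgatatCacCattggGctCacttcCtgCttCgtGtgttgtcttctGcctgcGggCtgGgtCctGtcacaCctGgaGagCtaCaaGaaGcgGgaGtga
Cox6a1: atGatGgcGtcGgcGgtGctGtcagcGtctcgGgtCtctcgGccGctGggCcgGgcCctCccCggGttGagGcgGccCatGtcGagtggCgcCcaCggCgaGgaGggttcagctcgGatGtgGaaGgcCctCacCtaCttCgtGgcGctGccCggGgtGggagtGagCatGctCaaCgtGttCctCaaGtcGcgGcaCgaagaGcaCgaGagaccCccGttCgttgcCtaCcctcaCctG
Uqcrb and Atp5f1, 240 bases each, belong to members that rose:
Uqcrb: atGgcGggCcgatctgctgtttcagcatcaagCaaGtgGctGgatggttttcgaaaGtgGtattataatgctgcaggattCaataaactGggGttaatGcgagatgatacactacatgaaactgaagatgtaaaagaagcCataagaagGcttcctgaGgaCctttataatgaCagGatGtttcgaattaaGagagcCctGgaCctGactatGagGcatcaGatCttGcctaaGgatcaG
Atp5f1: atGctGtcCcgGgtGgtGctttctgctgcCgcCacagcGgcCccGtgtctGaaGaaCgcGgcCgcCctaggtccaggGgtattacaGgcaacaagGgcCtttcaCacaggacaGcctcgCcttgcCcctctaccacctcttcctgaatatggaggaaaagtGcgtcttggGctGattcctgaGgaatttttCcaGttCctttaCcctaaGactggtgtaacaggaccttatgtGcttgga
In these stretches 58 of 70 codons of Cox8a and 68 of 80 codons of Cox6a1 ended in G or C, against 32 of 80 in Uqcrb and 35 of 80 in Atp5f1. The contrast does not hold for every pair: in the first 240 bases of Ndufs7, which fell with the smallest adjusted p of the members, 52 of 80 codons ended so, and in those of Ndufs6, which rose, 50 of 80. Over the whole coding sequence the GC content was 64.8% in Cox8a, 64.3% in Cox6a1, 42.9% in Uqcrb and 47.1% in Atp5f1. Some members with a lower GC content than Atp5f1, such as Atp5s (41.8%) and Atp5j (43.4%), did not pass. On GRCm38 the genes shown lie on the minus strand at chr19:7215153-7217616 (Cox8a), chr5:115345642-115348981 (Cox6a1), chr13:66900617-66905378 (Uqcrb) and chr3:105942698-105960099 (Atp5f1).

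Levels are first given per length, as FPKM (fragments per kilobase of gene, scaled to depth). The gene lengths behind the FPKM values are not known and need not match the main transcript. Atp5l and Cox6a1 had mean normalized counts of 2351 and 2113 and GENCODE transcripts of 544 and 571 bases, but 12.8 and 103 FPKM. Ranks and medians across genes therefore depend in part on those lengths. The F1 head of ATP synthase led the members. Atp5a1, its alpha subunit, had 229 ± 16.3 FPKM (SD, n = 3) in f/f water, 224 ± 32.2 in knockout water, 246 ± 33.8 in f/f DSS and 232 ± 45.8 in knockout DSS. Atp5b, the catalytic beta subunit, had 153 ± 11.1, 142 ± 40.2, 128 ± 21.2 and 133 ± 23.7 FPKM in the same order. Cox6b1, a complex IV subunit that faces the intermembrane space, had a mean of 144 FPKM over the 12 libraries, where Atp5b had 139 FPKM. In complex IV it was followed by Cox7c with 118 FPKM. Uqcrb (134 FPKM) and Uqcr10 (92.7 FPKM) led complex III, Sdhd (89.9 FPKM) and Sdha (63.9 FPKM) complex II, and Ndufb9 (67.2 FPKM) complex I. The median member had 15.7 FPKM in complex I, 53.2 in complex II, 58.5 in complex III, 47.2 in complex IV and 18.8 in ATP synthase.

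**Figure D1:**
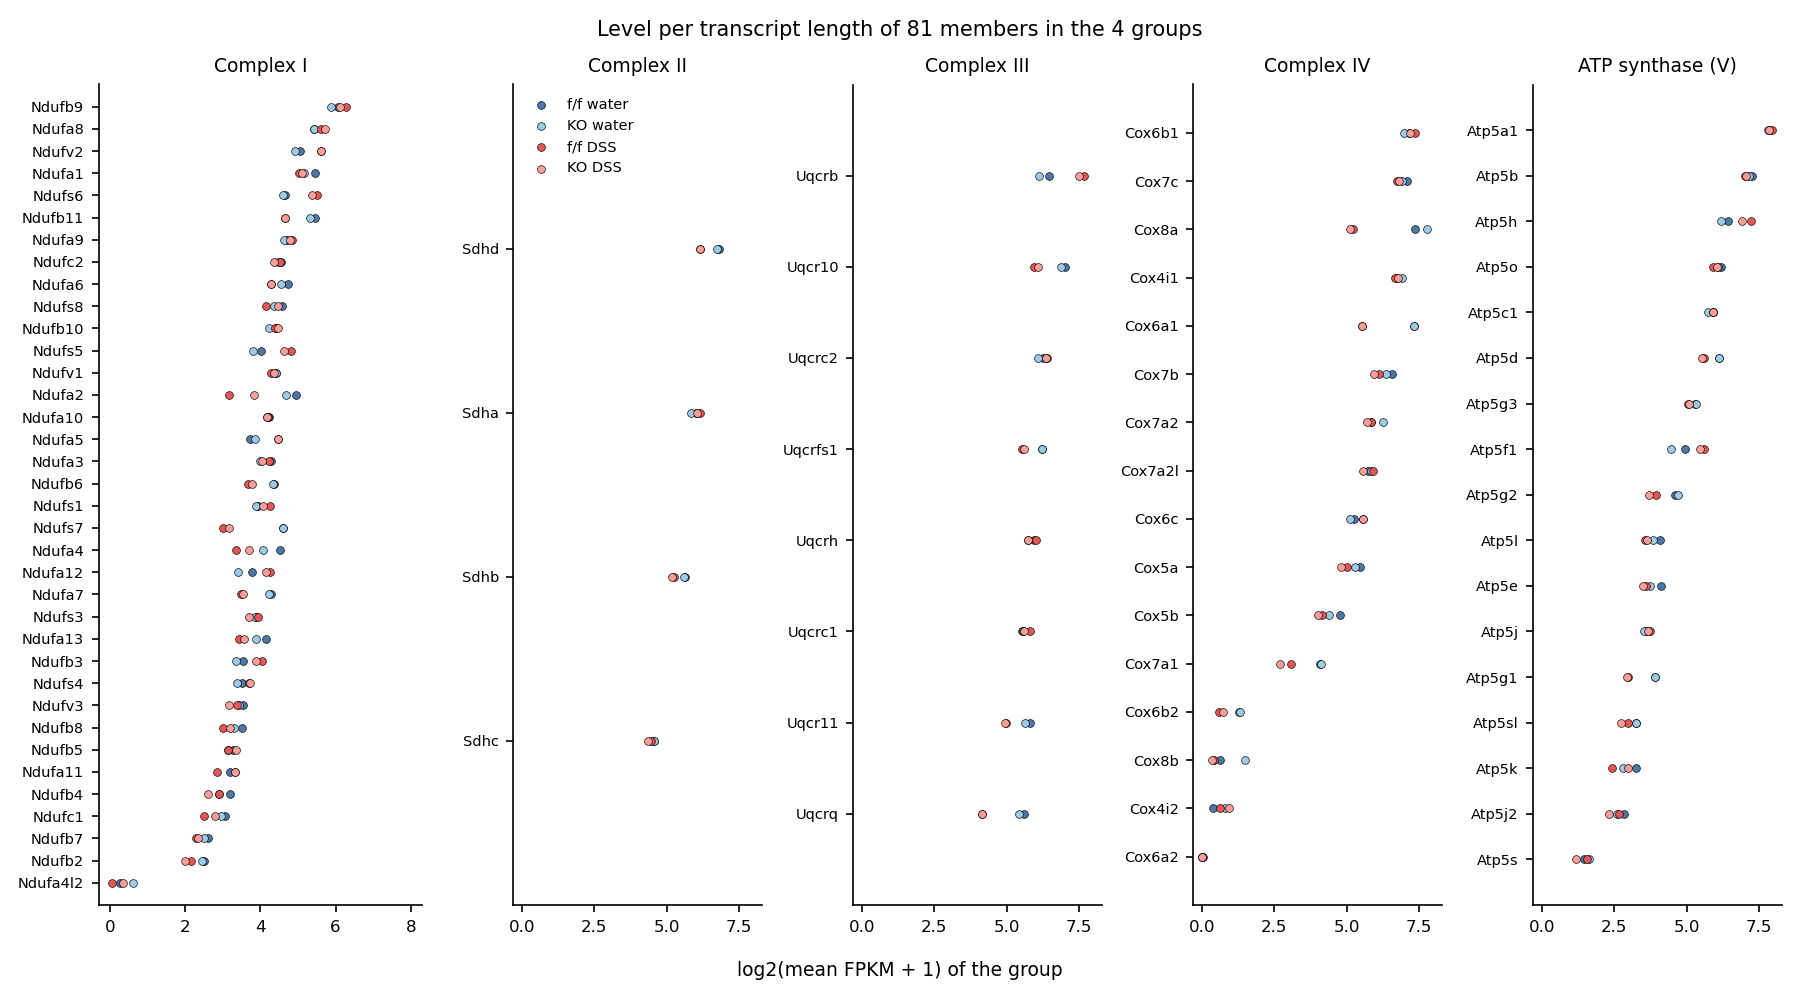
Group means of 81 members as log2(mean FPKM + 1), 1 panel per complex, with 1 point per group of 3 libraries. Atp5a1 is at the top and Cox6a2 at the bottom, and the DSS points of Cox8a, Cox6a1, Ndufs7 and Uqcrq lie left of the water points while those of Uqcrb lie right.

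Within families of alternative subunits, the widespread form prevailed. Cox4i2, the oxygen-responsive alternative to Cox4i1, made up 0 to 1.36% of the summed FPKM of the pair in any library. Cox6b2, known mainly from testis, made up 0.0612% to 1.83% of its pair, and Cox8b, a muscle and brown fat form, 0 to 2.45% of its pair. Cox6a2, the heart and muscle form, was listed at 0 in 11 libraries and at 1.65 normalized counts in f/f water 3. Ndufa4l2, a hypoxia-induced paralog of Ndufa4, did not exceed 29.8 normalized counts. Cox6a2, Cox8b and Ndufa4l2 had a mean normalized count below 10 and were not tested, which leaves 79 tested members. Cox7a1, the muscle form of its family, was the exception with 18.6% to 27.6% of the summed FPKM of Cox7a1 and Cox7a2 in f/f water.

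The DSS comparison asks how the members differ between injured and water-treated colon. Changes are log2 differences of group means of normalized counts after adding 1, tested with limma in 1 fit of all 12 libraries, and a gene passed at a Benjamini-Hochberg adjusted p under 0.05 over 23263 genes. Averaged over the genotypes, 22 of the 79 tested members fell and 7 rose. Of all tested genes 14.6% fell and 13% rose in this comparison. The members' share of falls (27.8%) lies above that background and their share of rises (8.86%) below it. All members are coding genes, whereas the background also holds noncoding genes. Among coding genes both shares varied with GC content (values below). The median change of the members was -0.24, that of all genes -0.07. By complex the median was -0.18 in complex I, -0.33 in complex II, -0.37 in complex III, -0.33 in complex IV and -0.28 in ATP synthase, and 55 of the 79 changes were negative. Under upper-quartile scaling, which shifts the median of all genes to 0.06, 15 members fell and 9 rose. Of all genes that passed, 3933 of 6546 rose with that scaling, against 3020 of 6419 without it.

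Among members the same complexes held genes that moved in opposite directions. The changes ranged from -1.68 to 0.84 in complex I, from -1.50 to 1.34 in complex III, from -2.46 to 0.42 in complex IV and from -1.10 to 0.86 in ATP synthase. In complex I 6 of 36 tested members fell and 4 rose, in complex II 2 of 4 fell, in complex III 4 of 8 fell and 1 rose, in complex IV 5 of 14 fell, and in ATP synthase 5 of 17 fell and 2 rose. The counts of complex I lie near the shares of all genes, of which 14.6% fell and 13% rose. Without f/f water 1, or without knockout water 1, the number of members that passed came to 19 in place of 29.

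**Figure D2:**
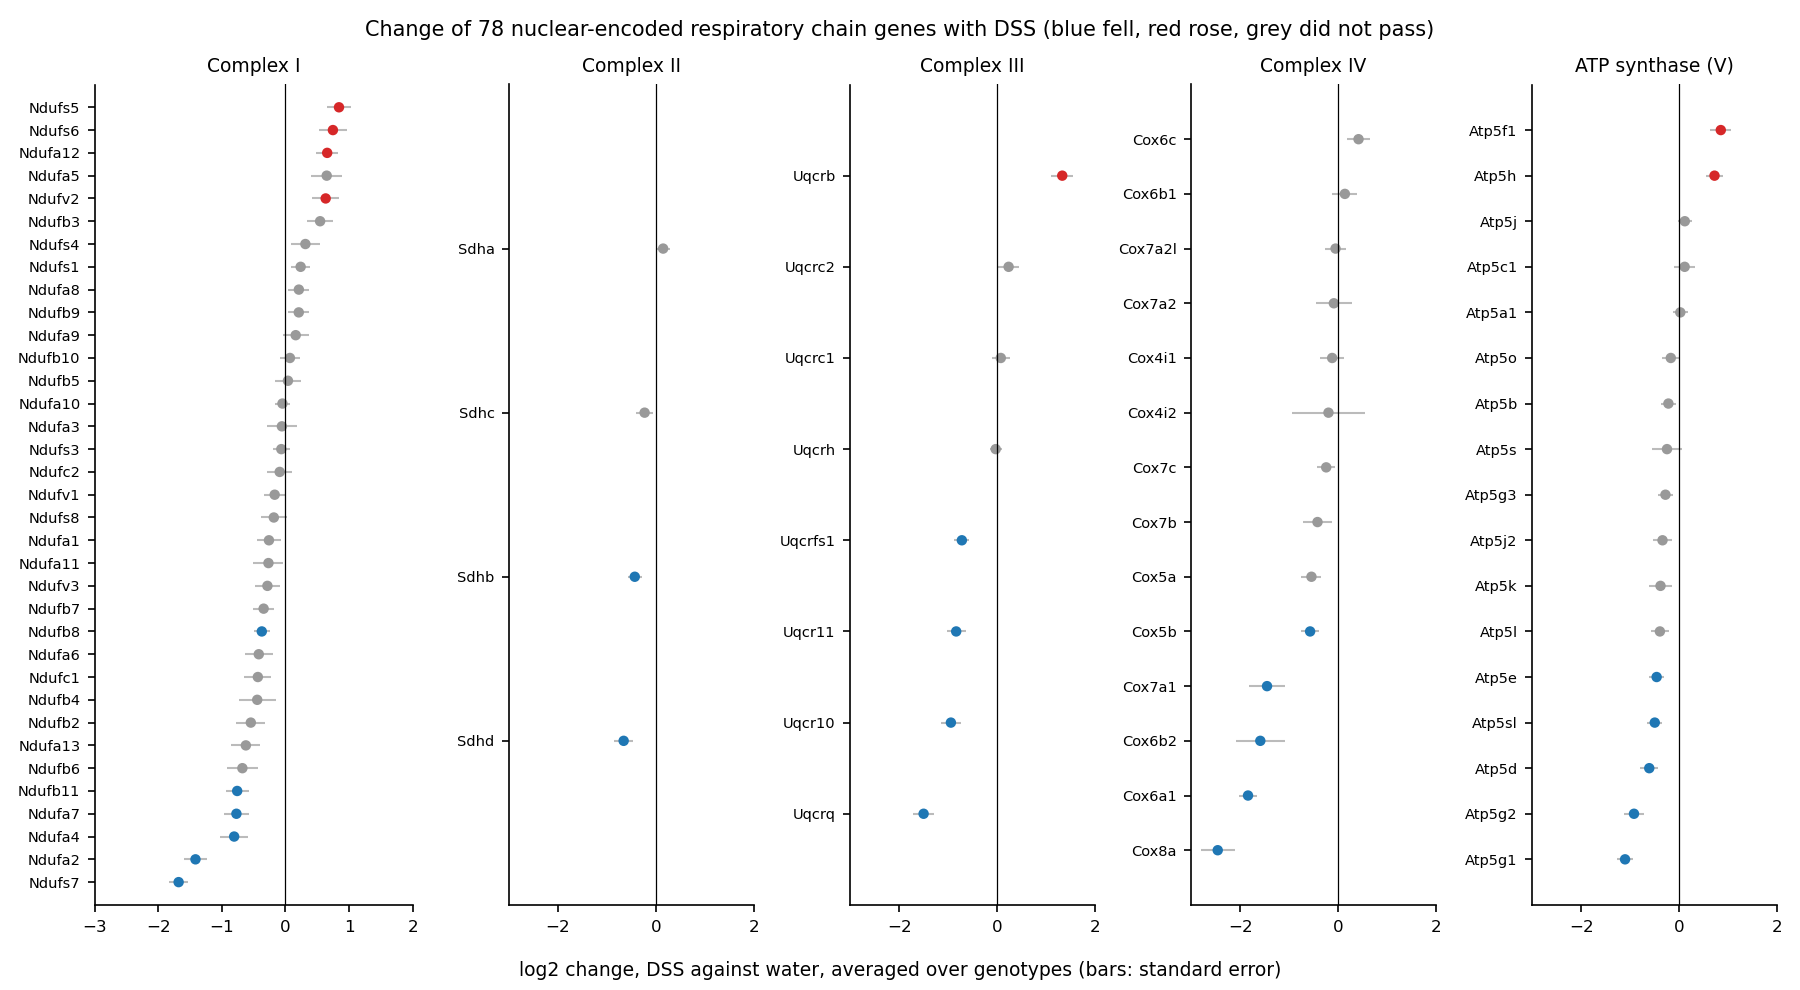
log2 change with DSS, averaged over genotypes, of 78 tested members by complex. Points are the fitted changes, bars their standard errors, blue marks the 22 members that fell, red the 7 that rose and grey the others, with Cox8a at -2.46 and Uqcrb at 1.34 as the ends of the range.

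In complex I the largest fall in the average was that of Ndufs7, a core subunit that carries the iron-sulfur cluster nearest the ubiquinone site. Its normalized counts were 1035, 1141 and 1305 in f/f water and 1271, 915 and 1383 in knockout water. With DSS they were 351, 382 and 305 in f/f and 431, 348 and 368 in knockout, so that the water and DSS libraries did not overlap. Ndufs7 fell by 1.68 ± 0.15 SE on the log2 scale (limma adjusted p = 0.000337). Among other core subunits, Ndufs1, Ndufs3, Ndufs8 and Ndufv1 did not pass, and Ndufv2, which carries a cluster on the NADH side, rose by 0.63 ± 0.22 SE (limma adjusted p = 0.0475), a call kept in 3 of the 12 fits that leave out 1 library.

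Ndufa2, a small accessory subunit at the NADH-oxidizing end, had 502, 549 and 407 normalized counts in f/f water and 363, 459 and 395 in knockout water. With DSS it had 167, 117 and 112 in f/f and 278, 177 and 186 in knockout, again with no overlap between water and DSS. Ndufa2 fell by 1.42 ± 0.19 SE (limma adjusted p = 0.000905). Ndufa7, Ndufb11 and Ndufb8, all accessory subunits, fell by 0.77, 0.76 and 0.37 (limma adjusted p = 0.0146, 0.0109 and 0.0497), and the call of Ndufb8 was lost whichever of the 12 libraries was left out. In the other direction Ndufs5 rose by 0.84 ± 0.19 SE, Ndufs6 by 0.75 ± 0.22 SE and Ndufa12 by 0.66 ± 0.17 SE (limma adjusted p = 0.00756, 0.0281 and 0.0162). Ndufs6 and Ndufa12 are accessory subunits of the NADH-oxidizing module, like Ndufa2, and Ndufs5 is an accessory subunit of the membrane arm. Ndufs5 had 245 to 406 normalized counts in the 6 water libraries and 470.1 to 792 in the 6 DSS libraries.

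Ndufa4 had 979.7, 949 and 653 normalized counts in f/f water, 445, 872 and 529 in knockout water, 436, 351 and 315 in f/f DSS and 617, 451 and 321 in knockout DSS. It fell by 0.81 ± 0.22 SE averaged over genotypes (limma adjusted p = 0.0205), although knockout water and knockout DSS overlapped. AA467197 (Nmes1), from the list of isoform switch genes, encodes a paralog that replaces Ndufa4 in complex IV during inflammation and whose transcript is the host of a microRNA. It had 485, 622 and 1356 normalized counts in f/f water and 589, 896 and 721 in knockout water. With DSS it had 4468, 2129 and 2605 in f/f and 3184, 4136 and 2435 in knockout, above every water library. AA467197 rose by 2.05 ± 0.27 SE (limma adjusted p = 0.000905). Per length, AA467197 was at 62.1 to 129 FPKM in the DSS libraries, where Ndufa4 was at 8 to 15.9 FPKM.

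In complex II, which also works in the citric acid cycle, the membrane anchor Sdhd fell by 0.66 ± 0.20 SE and the iron-sulfur subunit Sdhb by 0.43 ± 0.14 SE (limma adjusted p = 0.0299 and 0.0445). Leaving out 1 library at a time, Sdhd passed in 6 of 12 fits and Sdhb in 1 of 12. The flavoprotein Sdha changed by 0.15 ± 0.14 SE and the anchor Sdhc by -0.23 ± 0.17 SE, and neither passed. Sdhb had 2734 to 3729.8 normalized counts in the water libraries and 1772 to 2612 in the DSS libraries, without overlap.

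Complex III held the largest rise of any tested member. Uqcrb, which binds ubiquinone close to the cytochrome b subunit, had 1715, 2141 and 2779 normalized counts in f/f water and 1023, 2464 and 1496 in knockout water. With DSS it had 6145, 4089.7 and 4972 in f/f and 3193, 5234 and 4819 in knockout, all above the water libraries. Uqcrb rose by 1.34 ± 0.23 SE (limma adjusted p = 0.00241). 3 small subunits and the Rieske iron-sulfur protein fell instead. Uqcrq had 2238, 2512 and 2789 normalized counts in f/f water and 2521, 1980.4 and 2340.1 in knockout water. In the DSS libraries Uqcrq had 1181, 778 and 716 in f/f and 1197, 894 and 509 in knockout, below every water library. It fell by 1.50 ± 0.21 SE (limma adjusted p = 0.00113), Uqcr10 by 0.94 ± 0.20 SE, Uqcr11 by 0.83 ± 0.19 SE and the Rieske protein gene Uqcrfs1 by 0.72 ± 0.15 SE (limma adjusted p = 0.00696, 0.0093 and 0.00611). The processing-peptidase-like core proteins Uqcrc1 and Uqcrc2 changed by 0.08 ± 0.19 SE and 0.24 ± 0.21 SE and did not pass.

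In complex IV the widespread forms of Cox6a and Cox8 fell most. Cox6a1, an accessory subunit involved in dimer contacts, had 2397, 3271 and 4065 normalized counts in f/f water and 4430.1, 2274 and 3482 in knockout water. With DSS Cox6a1 had 1005, 1016 and 741 in f/f and 805, 939 and 929.6 in knockout, and the treatments did not overlap. It fell by 1.84 ± 0.19 SE (limma adjusted p = 0.000502). Cox8a, the smallest subunit, had 2599, 3152 and 3115 in f/f water and 2546, 6580.4 and 2056 in knockout water. With DSS Cox8a had 1073, 576 and 283 in f/f and 696, 410.4 and 632 in knockout. It fell by 2.46 ± 0.34 SE (limma adjusted p = 0.00111), with knockout water 2 far above the other water libraries and no overlap between treatments.

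Cox5b, a zinc-binding subunit, fell by 0.57 ± 0.18 SE, Cox7a1 by 1.45 ± 0.37 SE and Cox6b2 by 1.59 ± 0.51 SE (limma adjusted p = 0.0355, 0.0146 and 0.0368). Cox5b and Cox6b2 each passed in 4 of the 12 fits that leave out 1 library, Cox7a1 in all 12. Cox7a1 had 161 to 321 normalized counts in the water libraries and 41.2 to 172 in the DSS libraries, which overlapped. Its share of the summed FPKM of Cox7a1 and Cox7a2 was 22.3% ± 4.69 (SD, n = 3) in f/f water, 24.6% ± 11.5 in knockout water, 12.5% ± 8.18 in f/f DSS and 9.57% ± 1.54 in knockout DSS. The widespread partners Cox7a2, Cox6b1 and Cox4i1 changed by -0.08 ± 0.37 SE, 0.14 ± 0.26 SE and -0.12 ± 0.25 SE and did not pass. Beside Cox7a1, the muscle form, Ckm, the muscle creatine kinase of the striated muscle list, fell by 2.94 ± 0.48 SE (limma adjusted p = 0.00192). Ckm was the only 1 of the 6 tested striated muscle markers that passed, and the others went both ways, with 2 of the 6 changes positive (up to 0.89) and 4 negative. All 10 smooth muscle markers had negative changes with a median of -0.76, of which 1 passed. Less muscle RNA in a library and less Cox7a1 RNA per cell cannot be told apart in bulk tissue, and the same holds for the share of any other cell type and each member.

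**Figure D3:**
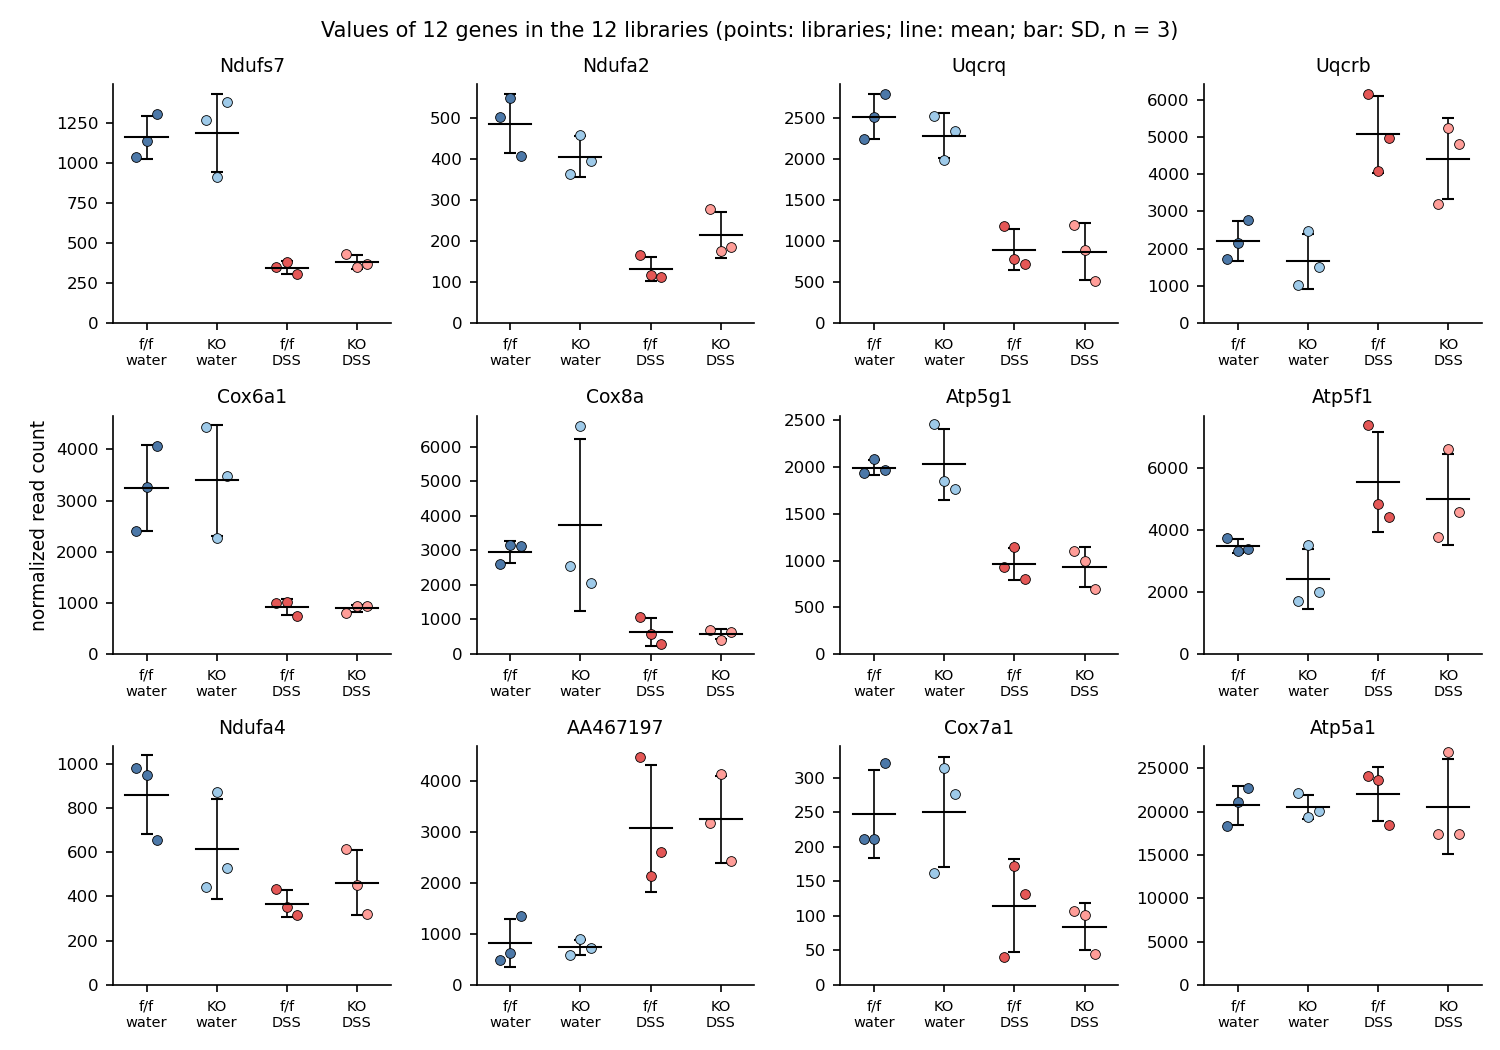
Normalized read counts of 11 members and of AA467197 in the 12 libraries, by group, with the mean and SD of 3 libraries. Ndufs7, Ndufa2, Uqcrq, Cox6a1, Cox8a and Atp5g1 are lower and Uqcrb, Atp5f1 and AA467197 higher in every DSS library than in every water library, while Atp5a1 overlaps.

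In ATP synthase the catalytic head did not pass: Atp5a1 changed by 0.03 ± 0.15 SE and Atp5b by -0.21 ± 0.16 SE. The ring of c subunits has 3 genes that encode the same mature protein with different import sequences. Atp5g1 had 1932, 2088 and 1964 normalized counts in f/f water and 2463, 1853 and 1769.7 in knockout water. In DSS libraries Atp5g1 had 935, 1142 and 802 in f/f and 1105, 997 and 693 in knockout. It fell by 1.10 ± 0.16 SE and Atp5g2 by 0.92 ± 0.21 SE (limma adjusted p = 0.00126 and 0.00851), both without overlap between treatments, whereas Atp5g3 changed by -0.28 ± 0.16 SE and did not pass. On the FPKM scale Atp5g3 made up 44.9% to 55% of the 3 genes' sum in the water libraries and 58.2% to 65.8% in the DSS libraries. The size of these shares depends on the gene lengths used. Atp5g1 had a mean of 1479 normalized counts and 10.4 FPKM, Atp5g3 2231 and 35.7, with GENCODE transcripts of 4715 and 723 bases. The coding GC content was 56.7% in Atp5g1, 56.7% in Atp5g2 and 49.1% in Atp5g3. With the GC correction described below, Atp5g3 fell too and Atp5g2 did not pass, so the contrast between the genes depends on that setting.

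The peripheral stalk, which holds the head still against the turning ring, held the rises. Atp5f1, its b subunit, had 3746, 3314 and 3396 normalized counts in f/f water and 1720.3, 3519 and 1997 in knockout water. With DSS Atp5f1 had 7392, 4837 and 4425 in f/f and 3775, 6604 and 4569.8 in knockout, just above the highest water library. Atp5f1 rose by 0.86 ± 0.21 SE and Atp5h, the d subunit, by 0.73 ± 0.17 SE (limma adjusted p = 0.013 and 0.00864). The other 2 stalk genes, Atp5j and Atp5o, did not pass. Of the central stalk, Atp5d fell by 0.61 ± 0.18 SE and Atp5e by 0.46 ± 0.15 SE (limma adjusted p = 0.0299 and 0.0415). Atp5sl (Dmac2), an assembly gene counted here by its symbol and not a subunit, fell by 0.49 ± 0.15 SE (limma adjusted p = 0.0343). With 1 library left out at a time Atp5d, Atp5e and Atp5sl passed in 5, 3 and 4 of 12 fits.

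Within f/f mice alone, 8 members fell and 0 rose, where 2.58% of all genes fell and 2.16% rose. They were Ndufs7 (log2 change -1.74), Ndufa2 (-1.89), Ndufa4 (-1.22), Uqcrq (-1.52), Uqcr10 (-1.12), Cox6a1 (-1.80), Cox8a (-2.39) and Atp5g1 (-1.07), with limma adjusted p between 0.00661 and 0.0498. Within knockout mice 7 members fell and 2 rose, where 5.71% of all genes fell and 5% rose. Ndufs7 (-1.62), Ndufa2 (-0.95), Uqcrq (-1.47), Cox6a1 (-1.88), Cox8a (-2.52), Atp5g1 (-1.13) and Atp5g2 (-1.09) fell, and Uqcrb (1.47) and Atp5f1 (1.08) rose, with limma adjusted p between 0.00614 and 0.043. The count in f/f came to 2, 1 and 3 without f/f water 1, 2 and 3, and to 5, 4 and 3 without f/f DSS 1, 2 and 4. The count in knockout came to 2, 3 and 5 without knockout water 1, knockout water 3 and knockout DSS 2.

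These within-genotype comparisons share no library with each other. The change had the same sign in both for 67 of the 79 members (84.8%), against 77.6% of all 23263 genes. Across the members, which are not independent replicates, the Pearson correlation of the changes was 0.90 and the Spearman correlation 0.82, against 0.68 for each over all genes. The difference between the genotypes' DSS changes, tested as an interaction, passed for 0 members and 0% of all genes with limma, and 2 members and 640 genes had an unadjusted p under 0.05. Those members were Ndufa2, with an interaction of 0.94 ± 0.38 SE, and Atp5k, a membrane subunit of ATP synthase, with 1.17 ± 0.49 SE. Atp5k had 132 to 169 normalized counts in f/f water against 62.3 to 85.6 in f/f DSS, and 68.5 to 164 in knockout water against 109 to 142 in knockout DSS.

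**Figure D4:**
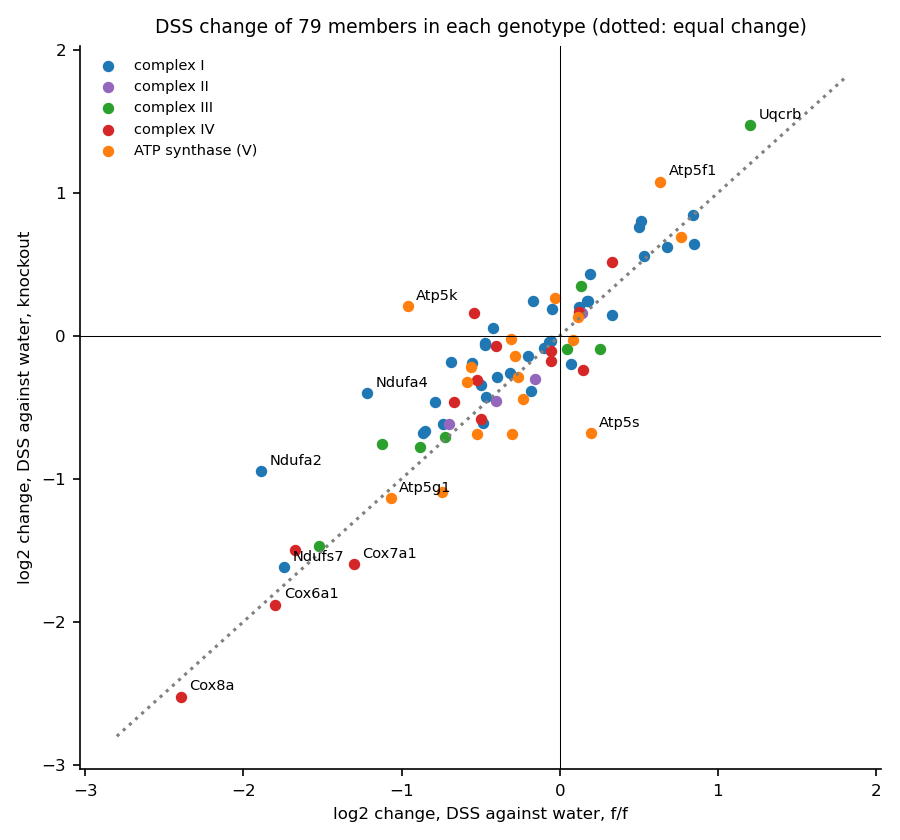
DSS change of the 79 tested members in f/f mice (horizontal) and in knockout mice (vertical), as log2 changes coloured by complex, with the line of equal change dotted. Cox8a, Cox6a1 and Ndufs7 lie low near the line and Uqcrb high near it, and Atp5k and Ndufa2 lie above it.

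The genotype comparison asks whether myeloid loss of Glul altered the members in the colon. On water, limma called 0 members and 0% of all genes, and on DSS again 0 members and 0% of all genes. At an unadjusted p under 0.05 there were 0 members and 757 genes on water and 1 member (Ndufa2) and 1215 genes on DSS. The voom fit on recovered reads called 0 genes in either. These comparisons share libraries with the DSS comparisons.

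On water the members' changes from f/f to knockout had a median of -0.15, and 60 of 79 were negative, where the median of all genes was -0.01. The 3 knockout water libraries differed among themselves: the mean log2 deviation of the members from their 12-library mean lay between -0.08 and 0.29 in knockout water and between 0.17 and 0.27 in f/f water. By library it was -0.08, 0.29 and 0.01 in knockout water 1, 2 and 3. The same score of the 5 RNAs listed for RNA quality was 0.93, -0.51 and 0.70 in these libraries and 0.15 to 0.23 in f/f water, and the 10 most abundant genes took 28%, 10.5% and 31.6% of their reads. The part of these differences in the members' values was not tested. Atp5f1 (-0.60 ± 0.30 SE), Atp5e (-0.37 ± 0.21 SE) and Ndufa12 (-0.42 ± 0.24 SE) had the smallest p, each with a limma adjusted p of 1. Leaving out each of the 6 libraries in turn gave medians from -0.28 (without knockout water 2) to -0.08 (without knockout water 1). On water 4 members (Uqcrh, Atp5e, Atp5h and Atp5j2) had every knockout value under the lowest f/f value, which is 5.06% of the members, where 4.29% of all genes did so.

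On DSS the median difference was -0.08, with 48 of 79 negative, and it ranged from -0.19 without f/f DSS 4 to 0.11 without knockout DSS 3. Its sign also turned without f/f DSS 1 (0.03), and it came to 0.00 without f/f DSS 2. Ndufa2 was higher in the knockout by 0.68 ± 0.27 SE (limma adjusted p = 0.951), and its groups did not overlap. Atp5k (0.62 ± 0.34 SE, limma adjusted p = 0.96) also had groups that did not overlap. No other tested member had every knockout value above the highest f/f value on DSS, so that they make up 2.53% of the members, where 2.99% of all genes did so.

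The direction of the DSS change followed the GC content of the coding sequence, in the members and in all coding genes. Over the 79 members the Spearman correlation of the averaged change with coding GC content was -0.63, and over all 15258 coding genes tested -0.52. These genes share libraries and base composition, so the correlations are descriptions. With the third codon position alone the values were -0.49 and -0.47, with the GC content of the whole transcript -0.32 and -0.53, and with transcript length 0.21 and 0.08. The members that fell had a median coding GC content of 57% (48.2% to 64.8%), those that rose 49.2% (42.9% to 54.7%), and those that did not pass 52.5%. In the sixth of coding genes with the lowest GC content, up to 46.3%, the median change was 0.42 and 32.2% of genes rose while 1.81% fell. In the sixth with the highest, from 58.9%, the median was -0.83 and 2.16% rose while 43.4% fell. From the lowest to the highest sixth, the members had median changes of 0.24, 0.05, -0.06, -0.20, -0.56 and -0.80. All coding genes had 0.42, 0.20, -0.01, -0.25, -0.54 and -0.83 in the same order.

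All 6 DSS libraries had the sixth with low GC above the 12-library mean (medians 0.11 to 0.35) and the sixth with high GC below it (-0.43 to -0.22). In 5 of the 6 water libraries the order was the reverse, most in knockout water 1 (-0.48 and 0.75) and knockout water 3 (-0.30 and 0.62). Knockout water 2 had both sixths near each other (0.09 and 0.14). GC content moved with treatment across all coding genes tested, not in the members alone.

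After a per-library lowess fit of level on coding GC content was subtracted, an alternative added after the data were seen, 13 members fell and 6 rose, in a fit that called 18% of all coding genes. The median change of the members was then -0.12, where that of all coding genes was -0.05. By complex the members' median was 0.05 in complex I, -0.13 in complex II, -0.16 in complex III, -0.30 in complex IV and -0.23 in ATP synthase. Ndufs7 (-0.95), Ndufa2 (-0.83), Ndufa4 (-1.05), Uqcrq (-1.02), Uqcr10 (-0.69), Uqcrfs1 (-0.52), Cox6a1 (-1.05), Cox8a (-1.66), Atp5g1 (-0.69) and Atp5e (-0.48) still fell, and Atp5l (-0.61), Atp5g3 (-0.46) and Ndufb6 (-0.73) joined them. Uqcrb (0.88), Ndufs5 (0.87), Ndufs6 (0.98), Ndufa12 (0.59), Atp5h (0.55) and Atp5f1 (0.56) still rose. The remaining 12 members that fell without the correction, among them Cox5b (-0.02), Sdhb, Sdhd (-0.15), Uqcr11 (-0.15), Ndufa7 (-0.15), Cox7a1 and Atp5g2 (-0.51), did not pass with it, nor did Ndufv2 (0.30). Atp5d (0.13) and Ndufb8 (0.053) changed sign.

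**Figure D5:**
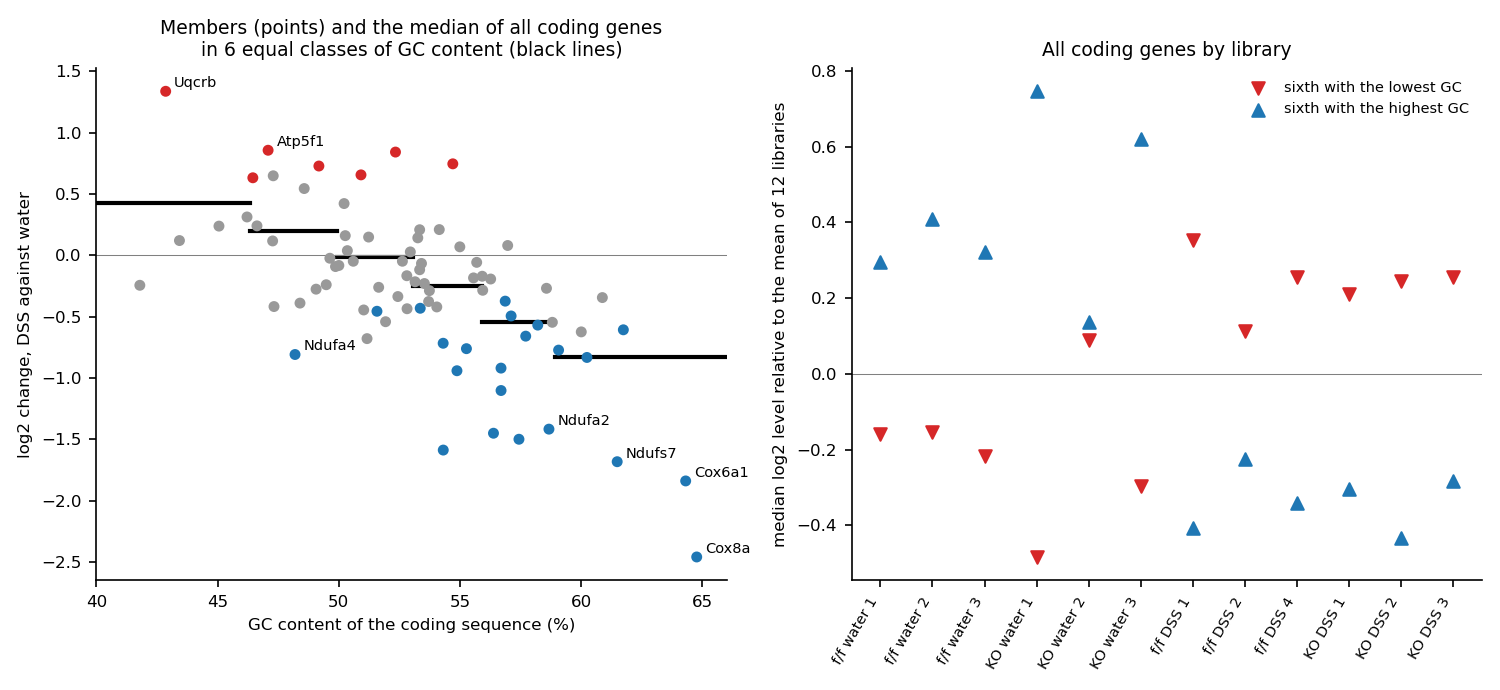
Left, log2 change with DSS of the 79 members against the GC content of their coding sequence, with black lines for the median of all coding genes in 6 classes of equal size, falling from 0.42 to -0.83. Right, the median level of the lowest and highest sixth in each library relative to the 12-library mean, with water and DSS libraries on opposite sides except knockout water 2.

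Promoter windows of RefSeq (GRCm38.p6), from 250 bases before to 50 after the start, were matched for 65 of the 82 members. They were searched on both strands for GCGCNTGCG (a core of sites of NRF1, a regulator of respiratory genes), CCGGAAG (a core of ETS factor sites, to which GABP binds) and AAGATGG (a core of YY1 sites). GCGCNTGCG was found in 35.4% of the members, 13.5% of coding genes tested and 7.12% of all genes with a window. CCGGAAG was found in 24.6%, 17.6% and 9.93%, and AAGATGG in 15.4%, 7.87% and 7.28%. GCGCNTGCG stood in 6 of 19 members that fell, in 4 of 5 that rose and in 13 of 40 that did not pass. CCGGAAG stood in 6, 1 and 9 of them, and AAGATGG in 2, 1 and 7. Only 5 of the 7 members that rose had a window, too few to relate a motif to the direction of change. The windows of Cox6a1, which fell, and Ndufs6, which rose, are shown because both hold GCGCNTGCG, with all matches of the searched letters or their reverse complements in capitals.
Cox6a1, chr5:115348909-115349208, minus strand: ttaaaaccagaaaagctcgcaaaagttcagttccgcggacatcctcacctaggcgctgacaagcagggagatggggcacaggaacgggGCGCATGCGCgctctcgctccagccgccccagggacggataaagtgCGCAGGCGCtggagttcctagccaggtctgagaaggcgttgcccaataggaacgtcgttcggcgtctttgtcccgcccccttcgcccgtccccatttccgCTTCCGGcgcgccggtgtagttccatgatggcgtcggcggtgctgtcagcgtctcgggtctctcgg
Ndufs6, chr13:73328433-73328732, minus strand: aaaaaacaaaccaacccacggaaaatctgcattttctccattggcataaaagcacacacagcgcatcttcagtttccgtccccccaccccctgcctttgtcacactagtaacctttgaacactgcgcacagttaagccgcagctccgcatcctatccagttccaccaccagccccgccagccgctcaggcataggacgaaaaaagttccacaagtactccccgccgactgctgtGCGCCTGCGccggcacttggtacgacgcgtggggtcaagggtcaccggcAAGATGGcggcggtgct
Where matches overlap the capitals run on. In Cox6a1 the capitals mark GCGCNTGCG on either strand and the reverse complement of CCGGAAG, and in Ndufs6 GCGCNTGCG and AAGATGG.

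Other genes of the pathway came from lists chosen with earlier results known. None of the 13 mitochondrially encoded subunits passed in any comparison: their median change with DSS was 0.98 in f/f and 0.26 in knockout, with mt-Nd5 nearest to passing in the average (1.10 ± 0.38 SE, limma adjusted p = 0.0509). Their summed normalized counts ranged from 507873 to 2576690 over the knockout water libraries, wider than in any other group. On DSS all 13 were lower in knockout than in f/f, with a median of -0.59, and 0 passed. Their mean log2 deviation was 0.33 to 0.68 in f/f DSS and -0.45, -0.29 and 0.68 in knockout DSS 1, 2 and 3, so that knockout DSS 3 was level with the highest f/f library. They come from shared transcripts and are not independent of each other.

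Of 45 assembly factors 9 fell and 2 rose in the DSS average, where 14.6% of all genes fell and 13% rose. Cox14 and Coa3, which act in the synthesis of the largest complex IV subunit, fell by 1.36 ± 0.17 SE and 0.78 ± 0.16 SE, and Ndufaf8, a complex I assembly factor, by 1.56 ± 0.33 SE (limma adjusted p = 0.00079, 0.00573 and 0.00668). Cox20 and Pet100, also complex IV factors, rose by 0.90 ± 0.21 SE and 0.70 ± 0.22 SE. Of 19 genes for electron carriers and ubiquinone synthesis 8 fell and 4 rose. Coq4 fell by 1.42 ± 0.23 SE and Coq2, which attaches the ubiquinone tail, by 0.95 ± 0.19 SE, while Cycs, cytochrome c itself, rose by 1.36 ± 0.24 SE (limma adjusted p = 0.0019, 0.00442 and 0.00297).

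Within the knockout 2 assembly factors fell and 1 rose, 3 carrier and ubiquinone genes fell and 1 rose, and within f/f 3 and 2 fell and 0 rose, where 5.71% and 5% of all genes fell and rose in the knockout and 2.58% and 2.16% in f/f. The lists that follow are again set in the DSS average, where 14.6% of all genes fell and 13% rose. In the citric acid cycle list 3 of 18 rose and 1 fell, the latter Idh2 with -1.09 ± 0.17 SE (limma adjusted p = 0.00161). Within the knockout 1 gene of this list rose and 1 fell, and within f/f 1 fell. Of 17 regulators of mitochondrial transcription and biogenesis 3 fell and 1 rose. Polrmt, the mitochondrial RNA polymerase, fell by 1.21 ± 0.22 SE and Gabpa, a subunit of GABP, rose by 0.83 ± 0.16 SE (limma adjusted p = 0.00293 and 0.00422). Of 9 tested genes for adenine nucleotide exchange, uncoupling and ATP synthase inhibition 3 rose and 1 fell. Slc25a4, the muscle-type ADP/ATP carrier, fell by 1.54 ± 0.29 SE, and Atpif1, the inhibitor of ATP synthase, rose by 0.85 ± 0.18 SE (limma adjusted p = 0.00381 and 0.00586). Within the knockout 1 regulator and 2 exchange genes rose and 2 and 1 fell, and within f/f 1 regulator fell and 0 exchange genes passed. Of 9 tested isoform switch and hypoxia genes 4 rose and 1 fell: Hif1a rose by 3.01 ± 0.42 SE, Bnip3 by 1.60 ± 0.25 SE and Pdk1 by 1.16 ± 0.24 SE beside AA467197, and Lonp1 fell by 0.76 ± 0.15 SE (limma adjusted p = 0.00108, 0.0017, 0.00559 and 0.00536).

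Cell-type markers moved as follows in the same DSS average, where 14.6% of all genes fell and 13% rose. Of 12 leukocyte markers 3 rose, among them S100a8 and S100a9 of neutrophils (3.25 ± 0.90 SE and 3.30 ± 0.86 SE). In the average 9 of the 12 changes were positive and 3 negative. Within f/f 0 of the 12 passed, with 11 changes positive and the largest 2.17. Within the knockout 2 rose, with 6 changes positive, 6 negative and the largest 5.89. Of all genes 2.16% rose in f/f and 5% in the knockout. The summed normalized counts of the leukocyte list were 1823 to 6538 in water and 2703 to 5247 in DSS libraries. Again in the DSS average, 2 of 12 epithelial markers rose (Cdh1 and Epcam) and 2 fell (Phgr1 and Cldn3). Of 10 absorptive colonocyte markers 1 rose and 1 fell. The goblet cell mucin Muc2 fell by 1.43 ± 0.36 SE (limma adjusted p = 0.0138), the only 1 of 8 goblet cell markers that passed. Of these 8 changes 4 were positive and 4 negative, with a median of -0.06. None of the 8 fibroblast and endothelial, 7 nerve and glia and 2 tested adipose markers passed. Of 5 RNAs listed for RNA quality, 2 fell. The part of these shifts in the members' changes was not tested.

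For 37 of the 82 members another annotated gene overlaps on the genome, on either strand (Uqcrb, Atp5f1, Ndufa2 and Ndufs6 among them), and because the strand setting of the counting is not known, their values may include reads of the neighbour. The pseudogene rows that were left out had mean normalized counts of at most 11.7.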

How the data were processed

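RNA of whole mouse colon was sequenced in 12 libraries, 3 per group of genotype and treatment, grouped by the sample labels. The authors deposited a table of log2 values of normalized counts and a table of log2 values of FPKM. Per the labels, RNA was extracted with TRIzol, and per the submitters' processing notes reads were aligned with STAR to GRCm38 (mm10). The read counter, its strand setting and the annotation are not known from the labels. In the count table, values scaled back per library came out as whole reads for 100% of the lower values (tolerance 0.01 reads), which gave depths of 14.7 to 41.2 M reads. The 4 columns that match no sample were not used. The members and gene lists were chosen with earlier results of these data known.

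The deposited values were taken as log2(normalized count + 1), and genes whose normalized count averaged 10 or more over the libraries were tested. A fold change on this scale understates the change of low genes. limma 3.58.1 (R 4.3.3) with a mean-variance trend fitted all 12 libraries at once, with 6 comparisons, each adjusted by Benjamini-Hochberg over 23263 genes at 0.05. Counts recovered as whole reads served only for the voom alternative. Base composition came from GENCODE M21 coding sequences. Tables were made with Python 3.11.15, pandas 2.3.3 and numpy 2.4.6. Named genes were the members that passed, per comparison and complex up to 4 with the smallest p, the 2 with the highest FPKM per complex, alternative forms of a subunit, and genes of the pathway lists that passed or had the smallest p. The 13 alternatives and the leaving out of each library are given at the end, and the same replicate number was checked as a pairing there. The result of 1 member is not reported here.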

Additional observations from a re-analysis of the deposited data

How the results depend on the processing

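Of the 29 members that passed in the DSS average, 13 passed under every alternative, 8 that fell (Ndufs7, Cox6a1, Ndufa2, Cox8a, Uqcrq, Atp5g1, Uqcrfs1 and Uqcr10) and 5 that rose (Uqcrb, Ndufs5, Atp5h, Atp5f1 and Ndufa12). Of the 9 in knockout 2 did so (Ndufs7 and Cox6a1), and of the 8 in f/f 0. Leaving out 1 library at a time gave 1 to 10 members in f/f, 2 to 10 in knockout and 19 to 26 in the average, and 14 to 1566, 94 to 3333 and 4150 to 6903 genes of all (1103, 2490 and 6419 with every library). For knockout against f/f it gave 0 to 1 genes on water, 0 to 7 on DSS and 0 to 2 for the interaction, with 0 members each.

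Members that passed numbered 20 in f/f and 16 in knockout with array weights, 2 in knockout with only the groups compared, and 3, 3 and 19 in f/f, knockout and the average after GC correction, added after the data were seen. All genes that passed in f/f numbered 664 with no filter, 3558 with array weights and 174 after GC correction. In knockout they numbered 1590 with voom, 4936 with array weights, 132 with only the groups compared and 799 after GC correction, which left 2746 in the average. For knockout against f/f on water, no filter gave 11 genes, a pseudocount of 5 gave 1, log2 FPKM values gave 2 and array weights 16. On DSS no filter gave 4, a pseudocount of 5 gave 1 and log2 FPKM values gave 2, and the interaction gave 2 with log2 FPKM values. After GC correction Atp5d (0.13) and Ndufb8 (0.053) reversed sign in the average; the cause was not tested. Only the groups compared was not run for the average and the interaction.

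With the replicate number as a block, 0 members and 46 genes passed in f/f, 7 members and 1411 genes in knockout, and 22 members in the average. The numbers did not pair the libraries: over 15 pairs with the same number the correlation of deviations was -0.18 to 0.24, over 0.1 in 3, and 2 of 11 libraries correlated best with their own number. Depth ranged from 14.7 to 41.2 M reads.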
